A study of Arabidopsis thaliana with 44 samples.

Results

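The 6 genes described here encode the MYB transcription factors that switch on glucosinolate biosynthesis in Arabidopsis. MYB28 (AT5G61420), MYB29 (AT5G07690) and MYB76 (AT5G07700) act on the aliphatic branch, and MYB34 (AT5G60890), MYB51 (AT1G18570) and MYB122 (AT1G74080) act on the indolic branch. They were taken by locus from a list of 34262 genes measured in 44 libraries, and all 6 loci were found in every library. Their names rest on published function and not on these measurements.

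There were 13 groups, and plant age was given as 7 days. The 3 root groups (n = 3) were tpst-1, the same genotype with 1 uM PSY5, and tpst/psyr1,2,3. The 5 shoot groups (n = 4) added wild type and psyr1,2,3 to these genotypes and treatments. A time course of whole seedlings of tpst-1 covered 0 h and 2 h, 6 h, 24 h and 7 d of 1 uM PSY5 (n = 3 per time). The 7 d group was also labelled as 7 days old, so its PSY5 exposure was as long as its stated age. By the labels it was therefore not a later sampling of the plants of the shorter times. TPST encodes the tyrosylprotein sulfotransferase, the enzyme that sulfates PSY peptides and other small signalling peptides, and PSYR1, PSYR2 and PSYR3 encode the receptors of PSY peptides. Every root and seedling group therefore carried the tpst label, and no wild-type root or seedling was analysed here. The labels do not give how long the roots and shoots were exposed to PSY5, and they name no mock-treated seedlings. In the time course, PSY5 therefore cannot be told apart from time and handling.

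Glucosinolates are sulfur-rich defence compounds of the cabbage order, made from methionine (aliphatic) or tryptophan (indolic). The amino acid is elongated (methionine only), converted to an aldoxime by CYP79 enzymes, oxidised by CYP83 enzymes, joined to sulfur, cleaved by the lyase SUR1, glucosylated and finally sulfated. The MYB factors bind promoters of these genes together with the basic helix-loop-helix factors MYC2, MYC3, MYC4 and MYC5. MYB28 is known as the main aliphatic regulator, with MYB29 and MYB76 in supporting roles. MYB34 is known mainly from roots and MYB51 from shoots, where it also responds to microbes and to ethylene, and MYB122 has a minor role.

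Deposited numbers of reads summed to 3.21 to 4.13 M per root library, 8.61 to 16.8 M per shoot library and 9.88 to 15.4 M per seedling library. The unit of these numbers may differ between roots and the other libraries, as described with the processing. A summed level of 6 leaf photosynthesis genes was 30.5 to 134 TPM in roots and 29759 to 41142 TPM in shoots, and that of 6 endodermis and root hair genes was 142 to 265 TPM in roots and 0.136 to 6.80 TPM in shoots, so tissue labels and markers matched. TPST transcript was present in every group. In shoots it was at 7.88 to 9.26 TPM in wild type, overlapping with 4.50 to 8.31 TPM in tpst-1, and at 11.1 to 12.1 TPM in psyr1,2,3, above wild type and above the 4.92 to 7.68 TPM of tpst/psyr1,2,3. Transcripts of the 3 receptors were not analysed here, and genotypes are named as labelled. Of the 20 shoot libraries, replicate 1 of tpst-1 stood apart: its median gene differed from the shoot mean by -0.616 log2 units in TPM (-0.0981 to 0.170 in the other 19), and its 10 most abundant genes took 23.2% of all TPM (10.6 to 16.0% in the others). Replicate 4 of tpst-1 shoots was the highest of its group for the root genes, with a summed level of 6.80 TPM against 0.402 to 0.549 TPM in the other 3. Regulator results that rest on the tpst-1 shoots are given without these libraries where a call or a value moved. In whole tissue, fewer cells expressing a gene and less RNA per cell cannot be told apart.

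All 6 genes lie on chromosomes 1 and 5 in the RefSeq annotation of TAIR10.1. MYB28 spans chr5:24689069-24691187 on the minus strand with up to 3 exons, and MYB34 spans chr5:24494291-24496371 on the plus strand with 3 exons. MYB51 lies at chr1:6389399-6391386 and MYB122 at chr1:27855578-27857598, both on the plus strand with 3 exons. MYB29, at chr5:2446669-2448584, and MYB76, at chr5:2450027-2451807, are neighbours in tandem with 1442 bases between them, so the split of reads between these close copies is uncertain. The 250 bases before the annotated start are shown for MYB28 and MYB34, which rose together in several comparisons, for MYB51, which often moved the other way, and for SUR1, the shared lyase gene, as an example of a pathway promoter that holds the motifs searched. All are from TAIR10.1, 5′ to 3′ on the gene's strand, and capitals mark motif matches on either strand. The windows are chr5:24691188-24691437 (minus) for MYB28, chr5:24494041-24494290 (plus) for MYB34, chr1:6389149-6389398 (plus) for MYB51 and chr2:8880441-8880690 (minus) for SUR1.
MYB28: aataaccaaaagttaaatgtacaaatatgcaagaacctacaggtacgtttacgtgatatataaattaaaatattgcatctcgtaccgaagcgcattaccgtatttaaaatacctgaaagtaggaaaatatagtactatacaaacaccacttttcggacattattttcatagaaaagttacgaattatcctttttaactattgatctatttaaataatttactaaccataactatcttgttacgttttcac
MYB34: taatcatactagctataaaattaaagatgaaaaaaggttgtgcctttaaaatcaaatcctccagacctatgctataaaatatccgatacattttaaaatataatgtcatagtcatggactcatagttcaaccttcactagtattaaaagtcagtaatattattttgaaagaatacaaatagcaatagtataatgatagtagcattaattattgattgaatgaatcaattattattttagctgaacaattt
MYB51: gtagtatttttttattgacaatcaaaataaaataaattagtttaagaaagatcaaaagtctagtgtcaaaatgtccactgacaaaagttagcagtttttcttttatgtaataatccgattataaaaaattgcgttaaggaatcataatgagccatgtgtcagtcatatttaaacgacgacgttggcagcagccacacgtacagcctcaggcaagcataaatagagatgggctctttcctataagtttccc
SUR1: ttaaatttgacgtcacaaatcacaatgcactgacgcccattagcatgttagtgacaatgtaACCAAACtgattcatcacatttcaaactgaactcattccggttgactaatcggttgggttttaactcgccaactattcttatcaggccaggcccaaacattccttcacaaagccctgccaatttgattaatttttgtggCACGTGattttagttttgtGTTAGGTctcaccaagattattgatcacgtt

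The motifs searched on both strands were CACGTG, the G-box bound by MYC factors, and ACCTAAC and ACCAAAC, which are MYB core motifs. They do not overlap in sequence. None of the 6 regulator windows held any of the 3. Of 27444 windows of the same length upstream of annotated genes, 6.49% held CACGTG, 2.46% ACCTAAC and 8.29% ACCAAAC. Among the genes of aliphatic enzymes the motifs were in 2, 1 and 1 of 24 windows, and among those of indolic enzymes in 0 of 14 each. In the SUR1 window all 3 were present, with ACCTAAC on the opposite strand (printed as GTTAGGT).

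Across the 13 groups the regulators fell into 4 genes with substantial transcript and 2 with very little. MYB28 had the highest mean level in roots of tpst/psyr1,2,3 (89.8 ± 7.53 TPM, SD, n = 3) and the lowest in tpst-1 seedlings at 0 h (16.4 ± 1.43 TPM, n = 3). From the third group in order of level downwards, neighbouring groups had overlapping libraries, with the exception of tpst-1 roots (51.3 ± 7.41 TPM), which lay above the 7 d seedlings (44.6 ± 0.958 TPM). MYB34 was a root transcript, at 60.9 to 87.4 TPM in the 9 root libraries, 4.29 to 26.6 TPM in shoots and 2.201 to 12.2 TPM in seedlings. MYB51 was lowest in PSY5-treated roots (4.15 ± 1.37 TPM) and highest in seedlings at 0 h (49.3 ± 3.17 TPM, n = 3), a group whose libraries did not overlap with those of any other group.

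MYB29 was near the detection limit in roots, with 0 to 3 reads per library and none in 4 of 9, and at 4.93 to 17.8 TPM in shoots and 5.04 to 13.99 TPM in seedlings. MYB76 had no reads in any root library, where 3 reads would correspond to 0.630 to 0.825 TPM. It did not exceed 1.07 TPM in shoots or 1.14 TPM in seedlings and was not tested in any tissue. MYB122 was at 0.531 to 2.96 TPM in roots and 0.223 to 0.970 TPM in seedlings, and it had no reads in 15 of 20 shoot libraries. MYB28 accordingly made up 99.5 to 99.8% of the summed aliphatic regulators in the 3 root groups and 71.0 to 81.0% in the other 10 (group means).

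**Figure D1:**
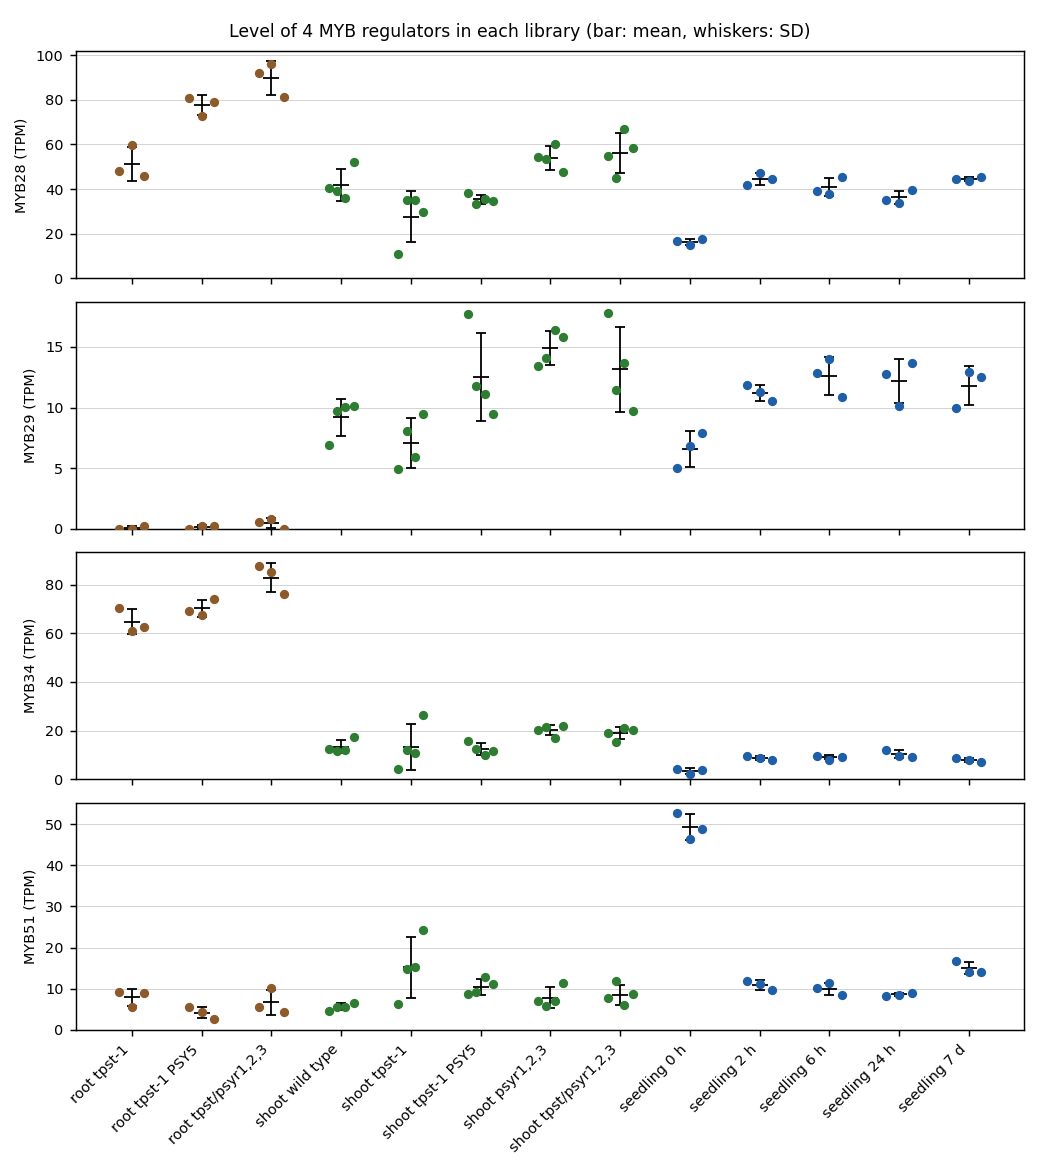
Level of MYB28, MYB29, MYB34 and MYB51 (y axes, TPM, from 0) in each library of the 13 groups (x axis), with the mean as a bar and the SD as whiskers. MYB34 is at 60.9 TPM or more in roots and at 26.6 TPM or less elsewhere, and MYB51 reaches 46.4 to 52.7 TPM in seedlings at 0 h.

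In roots of tpst-1, PSY5 was followed by more MYB28 and less MYB51 transcript. MYB28 was at 48.0, 59.8 and 46.1 TPM in untreated and 81.0, 72.6 and 79.1 TPM in treated roots, and the groups did not overlap (log2 fold change 0.64 ± 0.10 SE, adjusted p = 3.46e-05 by edgeR's quasi-likelihood test). MYB51 was at 9.26, 5.53 and 8.93 TPM without and 5.43, 4.31 and 2.71 TPM with PSY5. All treated roots lay below all untreated ones (-0.92 ± 0.30, adjusted p = 0.0412), but these values rest on 15 to 43 reads per library. DESeq2 (adjusted p = 0.122) and limma (0.146) did not call it, and the call was lost without untreated replicate 1 or 3 (adjusted p = 0.165 and 0.123) or treated replicate 2 or 3 (0.0856 and 0.204). MYB34 was at 70.5, 60.9 and 62.6 TPM without and 69.2, 67.5 and 74.2 TPM with PSY5, with overlapping groups (adjusted p = 0.227), and MYB122 did not pass (adjusted p = 0.855). Of the 4 regulators tested, 2 were called, where 15.2% of all 19958 genes were.

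Roots labelled tpst/psyr1,2,3 also had more MYB28 than tpst-1 roots, and more MYB34. MYB28 was at 92.0, 95.9 and 81.4 TPM (log2 fold change 0.80 ± 0.09, adjusted p = 1.81e-06). MYB34 was at 87.4, 85.2 and 76.0 TPM (0.34 ± 0.08, adjusted p = 0.00487), again above every tpst-1 root. MYB51, at 5.51, 10.2 and 4.40 TPM, overlapped with tpst-1 (adjusted p = 0.625). Here too 2 of 4 tested regulators were called, against 15.4% of all genes. Both root comparisons share the tpst-1 libraries.

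Between tpst/psyr1,2,3 roots and PSY5-treated tpst-1 roots, edgeR called 0 of 4 regulators (0.536% of all genes). MYB34 and MYB51 had an unadjusted p below 0.05, and DESeq2 and limma called 0. All 3 libraries of tpst/psyr1,2,3 were above those of PSY5-treated tpst-1 for MYB28 (95% interval of the log2 difference -0.03 to 0.34, adjusted p = 0.596). The same held for MYB34 (0.02 to 0.35, adjusted p = 0.434). The share of all genes with groups apart in this way was not computed. The summed level of the 6 endodermis and root hair genes was 142 to 163 TPM in tpst-1, 220 to 229 TPM with PSY5 and 251 to 265 TPM in tpst/psyr1,2,3, the order of MYB28. CASP1, a Casparian strip gene, had the largest part in it, with means of 48.7, 89.7 and 112 TPM. MYB36, an endodermis regulator on the same list, did not follow this order, at 19.4 to 22.8 TPM in tpst-1, 12.7 to 16.1 TPM with PSY5 and 18.2 to 20.01 TPM in tpst/psyr1,2,3. The part of these cell types in the root results was not tested.

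Most genes of aliphatic enzymes rose in the same root comparisons. Of 25 aliphatic enzyme genes listed, 23 were tested (AOP2 was not analysed here). With PSY5, 17 rose and 2 fell in roots (median log2 fold change 1.03, against 0.0018 over all genes, of which 7.52% were called higher and 7.69% lower). In tpst/psyr1,2,3 roots 19 rose and 2 fell (median 1.15), where 7.90% of all genes were called higher and 7.50% lower. By DESeq2 and limma, 1 fell there. MAM1, which elongates the methionine side chain, went from 17.9 ± 2.73 TPM in tpst-1 to 98.5 ± 8.15 TPM with PSY5 and 118 ± 10.9 TPM in tpst/psyr1,2,3 (n = 3 each). BCAT4, the aminotransferase that opens the elongation cycle, went from 131 ± 8.68 to 394 ± 16.5 and 445 ± 33.6 TPM. CYP79F2, an aldoxime-forming enzyme, went from 55.6 ± 3.46 to 134 ± 5.73 and 166 ± 7.17 TPM. Each of these 6 changes passed the test. The genes that fell, named after their values were seen, encode the side-chain oxidases FMO_GS-OX5 and FMO_GS-OX2 in both comparisons. FMO_GS-OX5 was at 90.4 ± 8.03 TPM in tpst-1, 65.0 ± 6.74 TPM with PSY5 and 71.1 ± 2.19 TPM in tpst/psyr1,2,3, and FMO_GS-OX2 was low throughout, at 3.34 ± 1.14, 0.505 ± 0.119 and 1.00 ± 0.865 TPM.

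Of 14 indolic enzyme genes, 5 rose and 1 fell in roots with PSY5 (median 0.19; 2 rose by limma, and 3 without untreated replicate 1 or treated replicate 2), and 7 rose and 2 fell in tpst/psyr1,2,3 (median 0.32; 1 fell by DESeq2, by limma and with any 1 of the compared libraries left out). GSTF9, a glutathione transferase, rose from 1156 ± 44.3 to 1717 ± 28.0 TPM with PSY5, and CYP81F1, an indole-ring hydroxylase, fell from 39.96 ± 2.43 to 24.5 ± 2.19 TPM. The 3 genes shared by both branches rose in both comparisons, SUR1 for example from 93.8 ± 2.41 to 130 ± 4.70 TPM with PSY5 and 153 ± 20.2 TPM in tpst/psyr1,2,3. Among the partners, MYC2 fell from 76.2 ± 22.5 to 30.1 ± 7.82 TPM with PSY5 (log2 fold change -1.32 ± 0.17) and to 35.8 ± 6.58 TPM in tpst/psyr1,2,3 (-1.12 ± 0.17). MYC3 rose from 20.05 ± 0.757 to 25.5 ± 0.791 TPM with PSY5. The glucosinolate importer genes GTR1 and GTR2 fell with PSY5, from 29.5 ± 10.7 to 15.9 ± 1.62 TPM and from 93.4 ± 4.34 to 54.5 ± 4.02 TPM.

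In shoots, MYB51 was called higher in tpst-1 than in wild type. Its level was 4.46, 5.57, 5.56 and 6.53 TPM in wild type and 6.33, 14.8, 15.2 and 24.3 TPM in tpst-1. Replicate 1 of tpst-1 lay within the wild-type range in TPM and the other 3 above it (log2 fold change 1.55 ± 0.25, adjusted p = 2.17e-04). The change was 1.72 without replicate 1 and 1.29 without replicate 4 of tpst-1, and the call held (adjusted p = 2.43e-05 and 8.07e-04). It was the only one of 4 tested regulators called, against 9.21% of all 20723 genes. The TMM scale used for the fold changes and the TPM scale differed in shoots: the median gene was 0.137 log2 units lower in tpst-1 than in wild type in TPM, and in tpst/psyr1,2,3 it was 0.329 higher than in tpst-1.

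MYB28 was at 40.5, 39.2, 36.0 and 52.3 TPM in wild-type and 10.8, 35.0, 35.1 and 29.6 TPM in tpst-1 shoots. All tpst-1 libraries lay below all wild-type ones, but the difference did not pass (log2 fold change -0.53 ± 0.17, adjusted p = 0.0553), and without replicate 1 of tpst-1 it was -0.35 (adjusted p = 0.107). It passed by DESeq2 (adjusted p = 0.0312) and without wild-type replicate 3 (0.0450) or tpst-1 replicate 2 or 3 (0.0395 and 0.0269). MYB34 was at 12.6, 11.7, 12.1 and 17.3 TPM in wild type and 4.29, 12.0, 10.7 and 26.6 TPM in tpst-1. The highest value was in replicate 4, the tpst-1 shoot library with the most root marker transcript. That marker sum was 6.80 TPM, against 142 to 163 TPM in tpst-1 roots, and a link between the 2 was not tested. MYB29 ranged from 6.95 to 10.2 TPM in wild type and from 4.93 to 9.48 TPM in tpst-1.

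In shoots labelled psyr1,2,3 alone, no regulator passed the test. Between psyr1,2,3 and wild-type shoots, edgeR called 0 of 4 (1.82% of all genes), as did DESeq2 and limma, and 1 regulator had an unadjusted p below 0.05. This was MYB29, at 13.4, 14.1, 16.4 and 15.8 TPM in psyr1,2,3, all above the 6.95 to 10.2 TPM of wild type (log2 fold change 0.53 ± 0.19, 95% interval 0.13 to 0.93, adjusted p = 0.178). It passed when these 8 libraries alone were fitted (adjusted p = 0.0331).

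In shoots labelled tpst/psyr1,2,3, MYB28 was higher and MYB51 lower than in tpst-1 shoots. MYB28 was at 54.8, 45.1, 66.8 and 58.5 TPM in tpst/psyr1,2,3, above all 4 tpst-1 libraries (log2 fold change 0.73 ± 0.17, adjusted p = 0.00563, and 0.56, adjusted p = 0.00593, without replicate 1 of tpst-1). MYB51 was at 7.61, 11.8, 5.97 and 8.61 TPM (-1.15 ± 0.24, adjusted p = 0.00249). The MYB51 difference was -1.32 without replicate 1 and -0.89 without replicate 4 of tpst-1, and on log2(TPM + 1) limma did not call it (adjusted p = 0.0734). MYB28 was not called when these 8 libraries alone were fitted (0.72, adjusted p = 0.0901). MYB29 was at 17.8, 11.5, 13.7 and 9.70 TPM, above all tpst-1 libraries, without passing (adjusted p = 0.0765). Limma on log2(TPM + 1) did call it (adjusted p = 0.0103), as did edgeR without replicate 4 of tpst-1 (0.0487) or of tpst/psyr1,2,3 (0.0395). MYB34 was at 19.0, 15.3, 21.2 and 20.4 TPM, and its log2 difference from tpst-1 was -0.01 without replicate 1 and 0.73 (adjusted p = 0.00959) without replicate 4. With all libraries, 2 of 4 regulators were called, against 15% of all genes.

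The effect of the tpst label on MYB51 differed with the psyr1,2,3 label. With that label MYB51 was at 8.49 ± 2.44 TPM in tpst/psyr1,2,3 and 7.79 ± 2.49 TPM in psyr1,2,3 (n = 4 each, 95% interval of the log2 difference -0.46 to 0.58). Without it MYB51 was at 15.2 ± 7.35 TPM in tpst-1 and 5.53 ± 0.848 TPM in wild type. The interaction was -1.49 ± 0.35 log2 units (adjusted p = 0.0191), -1.65 without replicate 1 and -1.23 without replicate 4 of tpst-1 (adjusted p = 0.00342 and 0.0358). Of the 4 regulators it alone was called, against 2.77% of all genes, and limma on log2(TPM + 1) did not call it (adjusted p = 0.278). The call was also lost without replicate 4 of psyr1,2,3 (-1.23, adjusted p = 0.0602) or replicate 3 of tpst/psyr1,2,3 (-1.37, adjusted p = 0.0503).

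PSY5-treated tpst-1 shoots had MYB51 at 8.60, 9.19, 12.7 and 11.1 TPM, above all wild-type libraries and within the range of tpst-1 (6.33 to 24.3 TPM), whose replicate 1 was below all 4. EdgeR called 0 of 4 regulators against tpst-1 (5.16% of all genes) and 0 against wild type (5.10%). Against tpst-1, MYB51 (log2 fold change -0.70 ± 0.24, adjusted p = 0.0894) and MYB29 (0.56 ± 0.19, adjusted p = 0.0918) had an unadjusted p below 0.05. MYB51 was called without replicate 1 of tpst-1 (-0.87, adjusted p = 0.0234) and not without replicate 4 (-0.44, adjusted p = 0.235). DESeq2 and limma called 0 of these 4. Against wild type, all 4 treated libraries were higher for MYB51 (0.85 ± 0.25, adjusted p = 0.0518), the 1 regulator with an unadjusted p below 0.05. DESeq2 called it, as did edgeR with these 8 libraries alone (adjusted p = 0.0189 and 0.00292), and limma called 0. MYB28, at 38.3, 33.2, 35.5 and 34.5 TPM, overlapped with both groups.

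In the remaining shoot comparisons edgeR called 0 of 4 regulators each. This held for tpst/psyr1,2,3 against psyr1,2,3 (0.458% of all genes), against wild type (7.04%) and against PSY5-treated tpst-1 (1.29%). The number with an unadjusted p below 0.05 was 0, 0 and 1, and DESeq2 and limma called 0. The exception was MYB28, higher in all 4 tpst/psyr1,2,3 libraries than in all PSY5-treated ones (0.53 ± 0.17, adjusted p = 0.145). With the 8 libraries alone it passed (adjusted p = 0.00969), and so did MYB34 (0.0498). These comparisons share libraries with those above.

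**Figure D2:**
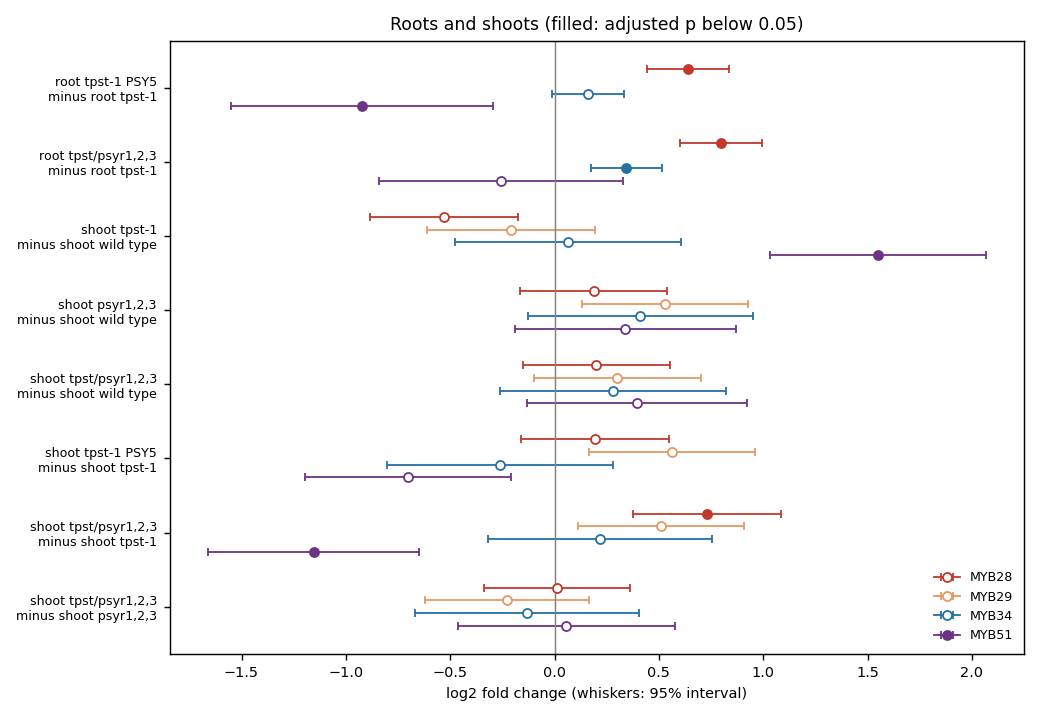
Log2 fold change with its 95% interval (x axis) of MYB28, MYB29, MYB34 and MYB51 in 8 root and shoot comparisons (y axis), filled where the adjusted p was below 0.05. MYB28 is above 0 and called in both root comparisons and between tpst/psyr1,2,3 and tpst-1 shoots, and MYB51 is called at 1.55 between tpst-1 and wild-type shoots.

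Some pathway genes of both branches were called higher in tpst-1 shoots than in wild type, with no regulator of the aliphatic branch called. Of 23 tested aliphatic enzyme genes 10 rose and 0 fell (median log2 fold change 0.63, against 0.0098 over all genes), and of 13 tested indolic ones 7 rose and 0 fell (median 0.80), where 7.07% of all genes were called higher and 2.14% lower. The aliphatic count was 2 by limma on log2(TPM + 1) and 3 with these 8 libraries alone, where the indolic count was 4. It was 4 without tpst-1 replicate 1 or wild-type replicate 1 or 2, and 6 without wild-type replicate 3. CYP83B1, the indolic CYP83 enzyme, rose from 24.3 ± 3.71 to 55.3 ± 19.5 TPM (adjusted p = 4.04e-05, n = 4 each). SOT16, the indolic sulfotransferase, rose from 16.0 ± 1.66 to 34.2 ± 9.85 TPM, and CYP81F2, which modifies the indole ring in defence, from 1.53 ± 0.776 to 6.19 ± 2.78 TPM. MAM3, a methionine side-chain elongase, rose from 8.86 ± 1.08 to 18.6 ± 7.35 TPM, and all 3 shared genes rose as well. In TPM, the summed level of 24 aliphatic enzyme genes was alike in wild type (914 ± 108) and tpst-1 (927 ± 116). That of 14 indolic enzyme genes was 563 ± 67.0 and 867 ± 109 TPM.

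Of 8 tested partners and other regulators, 3 rose in tpst-1 shoots and 0 fell (median log2 fold change 0.02), against the same 7.07% and 2.14% of all genes. SDI1, a sulfur-deficiency protein known to bind MYB28 and repress its action, was at 1.95 ± 0.687 TPM in wild-type shoots and rose to 32.8 ± 10.6 TPM in those of tpst-1 (4.35 ± 0.37, adjusted p = 7.73e-08), and its relative SDI2 from 7.56 ± 1.52 to 34.7 ± 14.3 TPM (2.52 ± 0.33, and 1.89 without replicate 1 of tpst-1). MYC2 rose from 5.12 ± 1.18 to 28.9 ± 25.7 TPM (2.53 ± 0.35, and 1.87 without replicate 4 of tpst-1). Of 7 transport and breakdown genes, 3 rose and 1 fell. GTR1 rose from 11.2 ± 0.613 to 55.8 ± 30.3 TPM, and BGLU28, a glucosidase of sulfur-starved plants, from 1.74 ± 0.541 to 10.3 ± 2.63 TPM. GTR2 rose by 0.43 ± 0.12 log2 units, a call lost by limma (adjusted p = 0.438) and without tpst-1 replicate 2 or 4 or wild-type replicate 1, 2 or 3 (0.0586 to 0.0939). PYK10, a glucosidase of endoplasmic reticulum bodies, fell from 263 ± 23.2 to 136 ± 49.9 TPM (-0.84 ± 0.17, adjusted p = 0.00183). In tpst/psyr1,2,3 against tpst-1 shoots, SDI1 fell to 11.6 ± 3.39 TPM, MYC2 to 10.01 ± 1.85 TPM and GTR1 to 19.5 ± 2.71 TPM. Of 8 partners and other regulators 1 rose and 2 fell, and of 7 transport and breakdown genes 1 rose and 2 fell. Those that rose were DOF1.1 and GTR2. By edgeR both calls were lost without replicate 1 of tpst-1 (0.30, adjusted p = 0.0675, and 0.29, adjusted p = 0.0922). The MYC2 difference was -1.80 ± 0.33, and -1.13 without replicate 4 of tpst-1. Of the enzyme genes in that comparison, 1 aliphatic gene rose and 2 fell, and 1 indolic gene rose and 2 fell, where 5.18% of all genes were called higher and 9.78% lower. By limma on log2(TPM + 1), the scale on which the median gene rose, 9 aliphatic genes were called higher and 1 lower, and 3 indolic genes higher and 1 lower. By edgeR, 2 aliphatic genes rose and 1 fell without replicate 1 of tpst-1, and 0 rose and 3 fell without replicate 4, where 1 indolic gene rose and 1 fell.

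In the seedling time course MYB51 fell and the other 3 tested regulators rose. MYB51 was at 52.7, 46.4 and 48.8 TPM at 0 h and at 11.9, 11.1 and 9.64 TPM at 2 h, with no overlap (log2 fold change -2.23 ± 0.11, adjusted p = 3.56e-12). MYB28 was at 16.7, 14.8 and 17.5 TPM at 0 h and at 41.9, 47.1 and 44.7 TPM at 2 h (1.40 ± 0.09, adjusted p = 1.60e-10). MYB34 was at 4.26, 2.201 and 3.96 TPM and then at 9.46, 8.84 and 7.92 TPM (1.28 ± 0.17, adjusted p = 1.36e-05). Every 2 h library was thus below every 0 h library for MYB51 and above every 0 h library for MYB28 and MYB34. At 0 h MYB51 was also above every tpst-1 library without PSY5 in roots (5.53 to 9.26 TPM) and shoots (6.33 to 24.3 TPM). MYB34 at 0 h was below all of these (60.9 to 70.5 TPM in roots, 4.29 to 26.6 TPM in shoots). It lay just below replicate 1 of tpst-1 shoots, the library that stood apart (4.26 against 4.29 TPM). MYB28 at 0 h was below those roots and overlapped with those shoots only through the same replicate 1 (10.8 TPM). The other tpst-1 shoots were above it for MYB28 (29.65 to 35.1 TPM). Why the 0 h seedlings differed in this way from both organs for MYB51, MYB34 and MYB28 was not tested.

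MYB29 had the smallest fold change at 2 h, from 5.04, 6.82 and 7.92 TPM at 0 h to 11.8, 11.3 and 10.5 TPM at 2 h (0.73 ± 0.17, adjusted p = 0.00574, and 0.0511 without replicate 1 at 0 h, whose omission lowered the change to 0.54). All 4 tested regulators were called at 2 h, where 12.5% of all 21069 genes were. They were also all called against 0 h at 6 h (14.5% of all genes), 24 h (14.1%) and 7 d (19.4%), with no overlap between groups. The share of all genes without such overlap was not computed. These 4 comparisons share the 0 h libraries.

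The regulators stayed apart from their 0 h levels at 6 h and 24 h. At 6 h, MYB51 was at 10.2, 11.3 and 8.48 TPM and MYB28 at 39.3, 37.9 and 45.5 TPM. At 24 h, MYB51 was at 8.22, 8.54 and 9.02 TPM and MYB28 at 35.4, 33.8 and 39.7 TPM. Between 6 h and 24 h, edgeR called 0 of 4 regulators (1.85% of all genes), 0 had an unadjusted p below 0.05, and DESeq2 and limma called 0. The 95% intervals of the log2 differences were -0.34 to 0.01 for MYB28, -0.39 to 0.28 for MYB29, -0.12 to 0.53 for MYB34 and -0.48 to 0.04 for MYB51.

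In the 7 d group, which had the same stated age, MYB51 was at 16.6, 14.1 and 14.2 TPM. This was above all 24 h libraries (log2 fold change 0.82 ± 0.12, adjusted p = 9.23e-05) and below all 0 h libraries (-1.73 ± 0.11, adjusted p = 2.22e-10). MYB28, at 44.6, 43.7 and 45.6 TPM, was above all 24 h libraries as well (0.32 ± 0.08, adjusted p = 0.0164), but limma did not call it (adjusted p = 0.0699). That call was also lost without 24 h replicate 1 or 2 (adjusted p = 0.101 and 0.0698) or 7 d replicate 3 (0.0669). MYB34, at 8.80, 7.76 and 7.04 TPM, was below them without passing (-0.37 ± 0.16, adjusted p = 0.153). MYB29, at 9.95, 12.9 and 12.5 TPM, overlapped with 24 h. Of 4 regulators 2 were called between 24 h and 7 d, against 9.76% of all genes. The root marker sum overlapped between all 5 time points (15.3 to 23.4 TPM), and the leaf marker sum went from 23457 to 26027 TPM at 0 h to 29103 to 31248 TPM at 7 d. The part of tissue proportions in these results was not tested.

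**Figure D3:**
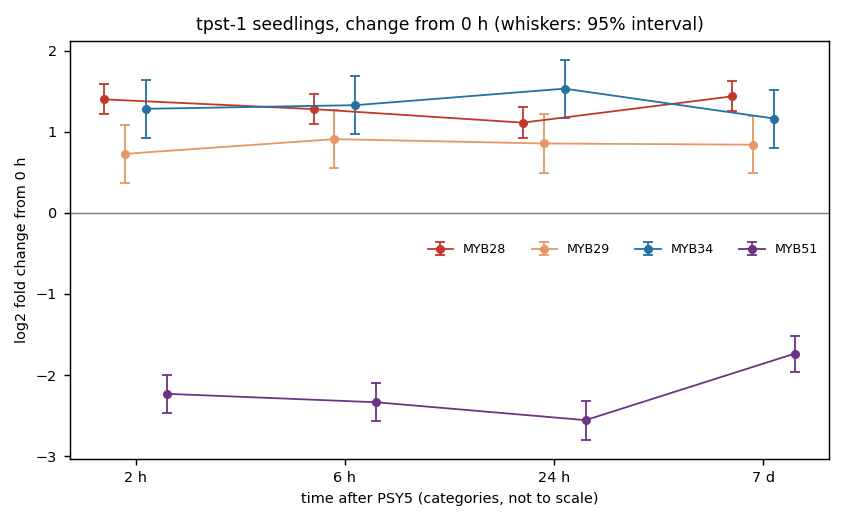
Log2 fold change from 0 h with its 95% interval (y axis) of MYB28, MYB29, MYB34 and MYB51 in tpst-1 seedlings at 4 times of PSY5 (x axis, categories). MYB51 is at -2.23, -2.34, -2.56 and -1.73, and the other 3 genes are above 0 at every time.

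At 2 h the enzyme genes of the branches were mostly called in opposite directions. Of 23 aliphatic genes 9 rose and 1 fell (median log2 fold change 0.22), and of 14 indolic genes 0 rose and 7 fell (median -0.37), where 4.53% of all genes were called higher and 8.01% lower. By limma the counts were 5 aliphatic genes higher and 4 indolic genes lower, and without 0 h replicate 1 or 2 h replicate 3 the aliphatic count was 4. BAT5, the transporter that brings the elongation substrate into plastids, rose from 19.96 ± 3.86 to 35.8 ± 2.202 TPM, and CYP83A1, the aliphatic CYP83 enzyme, from 100.4 ± 14.02 to 149 ± 4.17 TPM (n = 3 each). CYP81F2 fell from 10.7 ± 0.421 to 4.39 ± 1.42 TPM and IGMT1, which methylates indolic products, from 4.96 ± 0.604 to 1.79 ± 0.884 TPM. SDI2 fell from 58.6 ± 5.77 to 15.5 ± 1.73 TPM and MYC2 from 19.6 ± 2.15 to 11.3 ± 2.67 TPM, and DOF1.1, another activator of the pathway, rose from 8.34 ± 1.57 to 15.2 ± 1.02 TPM.

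At 7 d most aliphatic genes were above their 0 h levels. Of 23 tested, 17 rose and 0 fell (median 0.57), and 0 of 14 indolic genes rose and 3 fell (median -0.05), where 8.53% of all genes were called higher and 10.8% lower. CYP79F2 was at 22.9 ± 0.377 TPM (7.83 ± 0.761 TPM at 0 h) and MAM3 at 157 ± 7.61 TPM (82.4 ± 7.23 TPM at 0 h). The summed level of 24 aliphatic enzyme genes was 1845 ± 123 TPM at 0 h, 2009 ± 77.7 TPM at 2 h, 2405 ± 217 TPM at 24 h and 2610 ± 99.0 TPM at 7 d. PEN2, a thioglucosidase of indolic glucosinolates, fell from 91.2 ± 5.20 TPM at 0 h to 55.4 ± 2.58 TPM at 2 h.

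**Figure D4:**
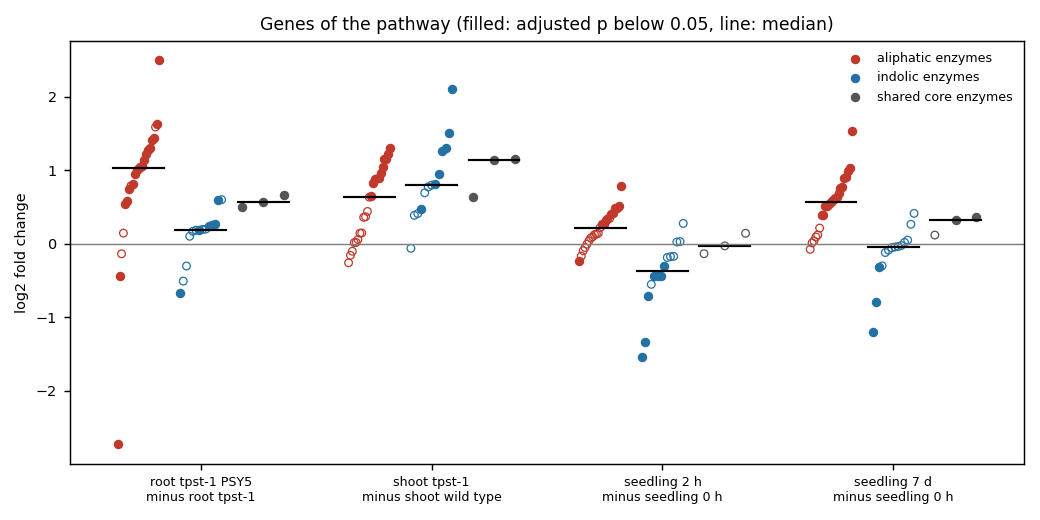
Log2 fold change (y axis) of each tested gene for aliphatic, indolic and shared enzymes in 4 comparisons (x axis), filled where the adjusted p was below 0.05, with the median of each list as a line. The aliphatic median is 1.03 in PSY5-treated roots, 0.63 in tpst-1 shoots, 0.22 at 2 h and 0.57 at 7 d, and the indolic median is -0.37 at 2 h.

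The balance of the branches can be read within a library as the summed level of the 3 aliphatic over that of the 3 indolic regulators, a ratio that does not depend on the scale between libraries. In roots it was 0.703 ± 0.155 in tpst-1, 1.02 ± 0.0401 with PSY5 and 0.984 ± 0.00701 in tpst/psyr1,2,3 (n = 3 each), and both later groups lay above all tpst-1 roots. In shoots it was 2.63 to 2.86 in wild type and 0.786 to 1.62 in tpst-1, including both libraries that stood apart. It was 1.94 to 2.35 in PSY5-treated tpst-1, 1.94 to 3.20 in psyr1,2,3 and 2.10 to 2.98 in tpst/psyr1,2,3, none of which overlapped with tpst-1.

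In seedlings the ratio was 0.383 to 0.477 at 0 h and at least 2.14 in every library with PSY5. It was thus below 1 in all seedlings at 0 h and above 1 in all those with PSY5. Within the indolic branch, MYB51 was 15.3 ± 5.05 times the level of MYB34 at 0 h, 1.24 ± 0.0225 times at 2 h and 1.90 ± 0.0994 times at 7 d. In shoots this ratio was 0.417 ± 0.0597 in wild type and 1.26 ± 0.254 in tpst-1.

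**Figure D5:**
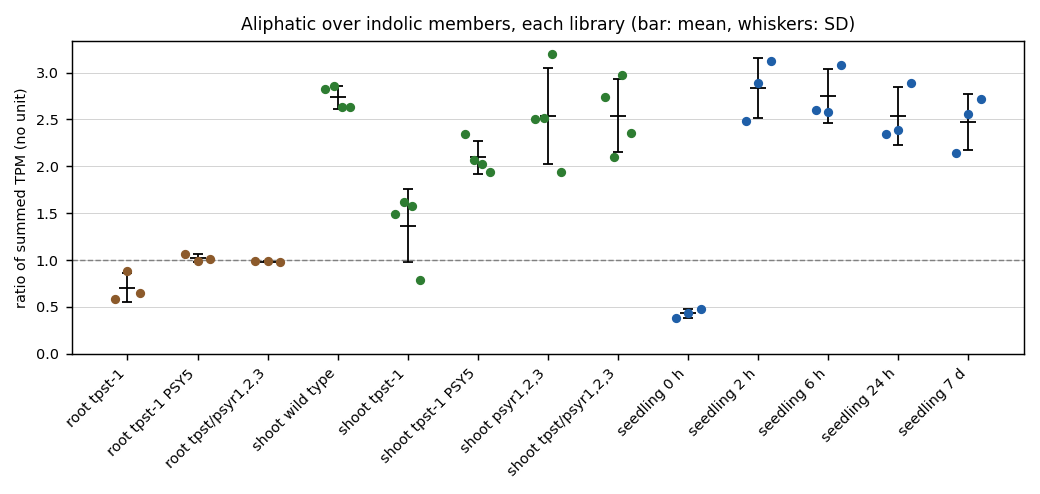
Ratio of the summed TPM of MYB28, MYB29 and MYB76 to that of MYB34, MYB51 and MYB122 (y axis, from 0) in each library of the 13 groups (x axis), with mean and SD and a dashed line at 1. Seedlings at 0 h lie at 0.383 to 0.477, and tpst-1 shoots at 0.786 to 1.62 lie below every other shoot library.

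Between tissues, tpst-1 shoots were set against tpst-1 roots in a joint fit of 23144 genes. Root libraries had 3.21 to 4.13 M deposited reads and shoot libraries 8.61 to 16.8 M. The labels do not say whether kit or instrument differed between them. Tissue therefore cannot be told apart from library preparation or run, here or in the levels across tissues above. Of 5 regulators tested 4 were called, but so were 65.8% of all genes, and the median gene was 0.695 log2 units lower in shoots in TPM, a shift that the TMM factors take out. MYB34 was lower in all 4 shoot libraries (log2 fold change -1.48 ± 0.24, adjusted p = 5.02e-06). MYB51 was higher relative to the median gene (1.75 ± 0.31, adjusted p = 1.29e-05), with overlapping TPM ranges of 6.33 to 24.3 in shoots and 5.53 to 9.26 in roots. MYB29 was at 4.93 to 9.48 TPM in shoots and at 0.271 TPM or less in roots. MYB122 was at 0.205 TPM or less in shoots and at 0.531 to 2.00 TPM in roots (-3.13 ± 0.96, adjusted p = 0.00654, from 2 to 8 reads per root library), and the replicate block lost this call (adjusted p = 0.250).

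MYB28 showed how far the tissue comparison depends on the scale. In TPM, every tpst-1 shoot (10.8 to 35.1) was below every tpst-1 root (46.1 to 59.8), and limma on log2(TPM + 1) called it lower (-0.99, adjusted p = 6.73e-04). On the TMM scale the difference was -0.08 ± 0.17 (adjusted p = 0.705), and it was 0.11 without replicate 1 of tpst-1 shoots and 0.05 without replicate 2 of tpst-1 roots. The effects of PSY5 and of the psyr1,2,3 label in tpst-1 were not shown to differ between shoots and roots for any of the 5 regulators. EdgeR called 0 for PSY5 (3.31% of all genes) and 0 for the psyr1,2,3 label (5.16%), 0 had an unadjusted p below 0.05 in either, and DESeq2 and limma called 0. Without replicate 1 of tpst-1 shoots, the PSY5 effect on MYB28 was lower in shoots than in roots by 0.65 log2 units (adjusted p = 0.0495). For MYB28 the 95% interval of the difference in the PSY5 effect was -0.96 to 0.03.

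Over the 13 group means, after the mean of each tissue was taken out, MYB28, MYB29 and MYB34 correlated positively with each other and negatively with MYB51. The correlation was 0.871 between MYB28 and MYB29, 0.897 between MYB28 and MYB34 and 0.877 between MYB29 and MYB34. It was -0.790, -0.657 and -0.825 between MYB51 and MYB28, MYB29 and MYB34. These are descriptions over 13 points that share libraries of the same tissue. The seedlings at 0 h weigh heavily in them. Mean MYB51 was 49.3 TPM at 0 h and 8.59 to 14.9 TPM in the other seedling groups, and mean MYB28 was 16.4 and 36.3 to 44.6 TPM. The correlations were not computed without the 0 h group. Of 19694 genes compared, the most alike to MYB28 were AT4G29100 (r = 0.978), AT5G18940 (0.968) and AT3G04140 (0.961). The most alike to MYB29 were AR791 (0.976), AT1G34110 (0.964) and AT4G13550 (0.963). For MYB34 they were AT5G25840 (0.966), RAP2.7 (0.966) and AT1G02270 (0.963), and for MYB51 they were AT2G26190 (0.973), CYP706A2 (0.962) and GAE1 (0.961).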

How the data were processed

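RNA-seq of total RNA (RNeasy kit, per the labels' protocols) was measured in 44 libraries. The labels' protocols name a TruSeq v2 kit on a MiniSeq and an NEBNext Ultra II kit on a NextSeq550 without saying which libraries used which. Per the file headers, the authors' files give a TPM value and a number of reads per gene, where the deposited numbers of reads are fractional expected counts. Per the submitters' processing notes the build was TAIR10. The program that gave the numbers of reads was not named in the sources used here. Of 34262 identifiers, 32548 had a symbol in the RefSeq gene table (TAIR10.1). TAIR10.1 was used for coordinates and sequences after its spliced lengths were compared with the deposited ones, which were equal within 1 base for 99.3% of 21307 genes with 1 transcript.

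Expected counts were rounded and tested with edgeR 4.0.16 in R 4.3.3 (TMM factors, trended dispersion, quasi-likelihood F test), with all groups of a tissue in 1 fit and roots and shoots in a joint fit for tissue contrasts. Genes with 1 TPM or more in 3 or more libraries (4 in shoots) were tested. P-values were adjusted by Benjamini and Hochberg over all tested genes, and a gene was called at an adjusted p below 0.05. Sums and ratios were taken over TPM without a test. Likeness was Pearson's r of log2(TPM + 1) over 13 group means centred by tissue. Alternatives were median-of-ratios factors, other filters, DESeq2 1.42.0, limma 3.58.1 on log2(TPM + 1) and log2(TPM + 0.1), a replicate block, the compared groups alone and each library left out. For the first comparison of each fit, the test was also run on counts simulated from the fit's own means and dispersions. Such counts cannot show that the model suits the data. Up to 4 called pathway genes per list and comparison, by smallest adjusted p, could be named. Figures were drawn with matplotlib 3.10.9 in Python 3.11.15. The regulators, lists and tests were chosen with earlier results of these data known. What separates replicates is not labelled, so p-values measure the spread between these libraries, which may be technical.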

Additional observations from a re-analysis of the deposited data

Results flagged for a closer look

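In shoots of wild type, MYB29 was at 6.95 TPM in replicate 1 and at 9.69 to 10.2 TPM in the other 3, a gap large enough to set the library apart for a group of 4 by Dixon's test. MYB34 was at 17.3 TPM in replicate 4 of wild-type shoots and at 11.7 to 12.6 TPM in the other 3. MYB76 was at 1.05 TPM in replicate 4 of tpst-1 shoots and at 0 to 0.168 TPM in the other 3. These are 3 of 27 combinations of a regulator and a shoot group of 4 libraries that were examined, and chance alone marks about 1 in 20. Combinations of the same group share its libraries.

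The effect of the tpst label on MYB51 in shoots differed between plants with and without the psyr1,2,3 label by -1.49 log2 units (interaction, edgeR adjusted p = 0.0191).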

How the results depend on the processing

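Across 21 comparisons, 29 regulator results with a fold change given were called. MYB29 between tpst-1 shoots and roots was also called but is not among them, since its root reads were too few. All 29 kept their sign under every alternative run, 22 were called under all of them, and 403 of 424 alternatives kept the call. In PSY5-treated against untreated roots, 1 regulator was called by DESeq2 and by both limma fits (main 2, range with a library left out 1 to 2). In tpst-1 against wild-type shoots, DESeq2 called 2 (main 1, range 1 to 2). In PSY5-treated tpst-1 against wild-type shoots, 1 was called without a filter, by DESeq2 and with the compared groups alone (main 0). With the compared groups alone, 1 was called in psyr1,2,3 against wild type (main 0), 1 in tpst/psyr1,2,3 against tpst-1 (main 2, range with a library left out 2 to 4) and 2 in tpst/psyr1,2,3 against PSY5-treated tpst-1 (main 0). For the interaction in shoots, both limma fits called 0 (main 1, range 0 to 1). Between 24 h and 7 d, both limma fits called 1 (main 2, range 1 to 2). With a library left out, 0 to 1 were called for PSY5 in tpst-1 shoots (main 0) and 0 to 1 for the difference of the PSY5 effect between tissues (main 0). The MYB34 difference between tpst/psyr1,2,3 and tpst-1 shoots ran from -0.011 to 0.73 (main 0.22), and the MYB28 difference between shoots and roots from -0.19 to 0.11 (main -0.08). The cause of these changes was not tested. Of 1431 alternatives for 98 named pathway gene results, 0 reversed a direction and 101 lost the call.

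The replicate number was tried as a block. Same-numbered libraries of different groups did not deviate together (correlations from -0.131 to 0.108, of which 1 of 40 in shoots and none in roots or seedlings was over 0.1), so the numbers do not pair the samples. With the replicate block, 1 regulator was called in PSY5-treated tpst-1 against wild-type shoots (MYB51, 0.85, adjusted p = 0.0222).

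Depth limits MYB76, MYB122 and root MYB29, at 3 reads or fewer in many libraries. For 4 of their results no fold change is given.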
